A study of Mus musculus with 12 samples.

Results

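Collagen VI and the collagens that attach to fibrils or to the edge of basement membranes were followed through mouse skin exposed to ultraviolet light (UV) and control skin. The set held 9 genes chosen by name from the 49492 of the deposited gene table, namely Col6a1, Col6a2, Col6a3, Col6a5, Col6a6, Col12a1, Col14a1, Col15a1 and Col16a1, together with the 41 of 42989 listed m6A peaks that carry their names. All 9 were expressed well enough to be tested in every comparison. The samples were 3 pieces of skin labelled UV and 3 labelled Control, each giving an immunoprecipitated (IP) library of RNA fragments bound by an antibody to N6-methyladenosine (m6A) and an input library of the RNA before the antibody step. The sources used here give no strain, age or body site, nor the type, dose and timing of UV or the antibody. Since nothing in the labels ties each sample to its own animal, the p-values refer to the spread among samples, which may be technical. In bulk skin a lower value can mean fewer cells that make the transcript or less of it per cell, and the data cannot tell these apart.

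Collagen VI is built from chains encoded by Col6a1, Col6a2 and 1 of several longer chains, most often that of Col6a3, and assembles into beaded filaments around cells and between collagen fibrils. The chains of Col6a5 and Col6a6 are long relatives of the Col6a3 chain. Col12a1, Col14a1 and Col16a1 encode fibril-associated collagens with interrupted triple helices, of which types XII and XIV lie on the surface of type I collagen fibrils. Col15a1 encodes a collagen with chondroitin sulphate chains at the basement membrane zone. The main dermal source of most of these transcripts is the fibroblast. m6A is the commonest internal base modification of messenger RNA and in mammals lies mostly in long exons and around the stop codon, and a ratio of IP to input reads above that of the average gene is commonly read as more of it.

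In GRCm38, on the coordinates of the deposited table, Col6a1 (chr10:76708792-76726168) and Col6a2 (chr10:76595762-76623630) are neighbours on the minus strand. So are Col6a5 (chr9:105856078-105960643) and Col6a6 (chr9:105687809-105828160). Col6a3 (chr1:90765923-90843971) and Col12a1 (chr9:79598991-79718831) are also on the minus strand, and Col14a1 (chr15:55307750-55520803), Col15a1 (chr4:47208161-47313167) and Col16a1 (chr4:130047840-130099283) on the plus strand.

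Each library held 24126662 to 92163619 reads in genes, and the 9 genes collected between 118 reads (Col6a5, 1 control input library) and 38916 reads (Col6a3, 1 UV IP library). Abundance is given as CPM, read counts scaled to a common library size with TMM factors over all 12 libraries, and levels of different genes are compared only as CPM per kilobase of merged exons. Keratinocyte markers, which define the labelled tissue, summed to 54648 to 79242 CPM in the UV input libraries and 23805 to 57405 CPM in the control ones. The 10 fibroblast markers summed to 531 to 566 CPM in UV and 492 to 656 CPM in control. No marker of the 9 cell type lists examined had zero reads in all input libraries.

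The order of the levels was led by the common collagen VI chains. On the CPM per kilobase scale Col6a1 stood at 62.0 ± 1.69 in UV and 61.2 ± 11.97 in control skin (SD, n = 3 each), and Col6a2 at 38.4 ± 0.61 in UV and 39.1 ± 6.37 in control. Col6a3 had a level of 26.8 ± 1.22 in UV and 32.5 ± 5.71 in control. In UV the 3 did not overlap one another, whereas in control Col6a2 and Col6a3 did. Below them came Col16a1 with 15.2 ± 0.93 in UV and 21.9 ± 2.80 in control, Col15a1 with 10.3 ± 0.44 and 14.6 ± 1.25, and Col14a1 with 5.71 ± 0.91 and 7.89 ± 0.36. Col12a1 was the gene whose place in the order changed: its level of 14.5 ± 1.49 in UV overlapped that of Col16a1 and lay above every Col15a1 value, while its 8.84 ± 0.65 in control overlapped that of Col14a1 and lay below every Col15a1 value. Col6a6, at 1.31 ± 0.16 in UV and 1.62 ± 0.75 in control, and Col6a5, at 0.79 ± 0.05 in UV and 0.43 ± 0.06 in control, were the lowest in both groups. The length used is the union of all annotated exons (8326 bases for Col6a2, including 3 long exons), so the distance between neighbours in this order depends on the annotation.

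**Figure D1:**
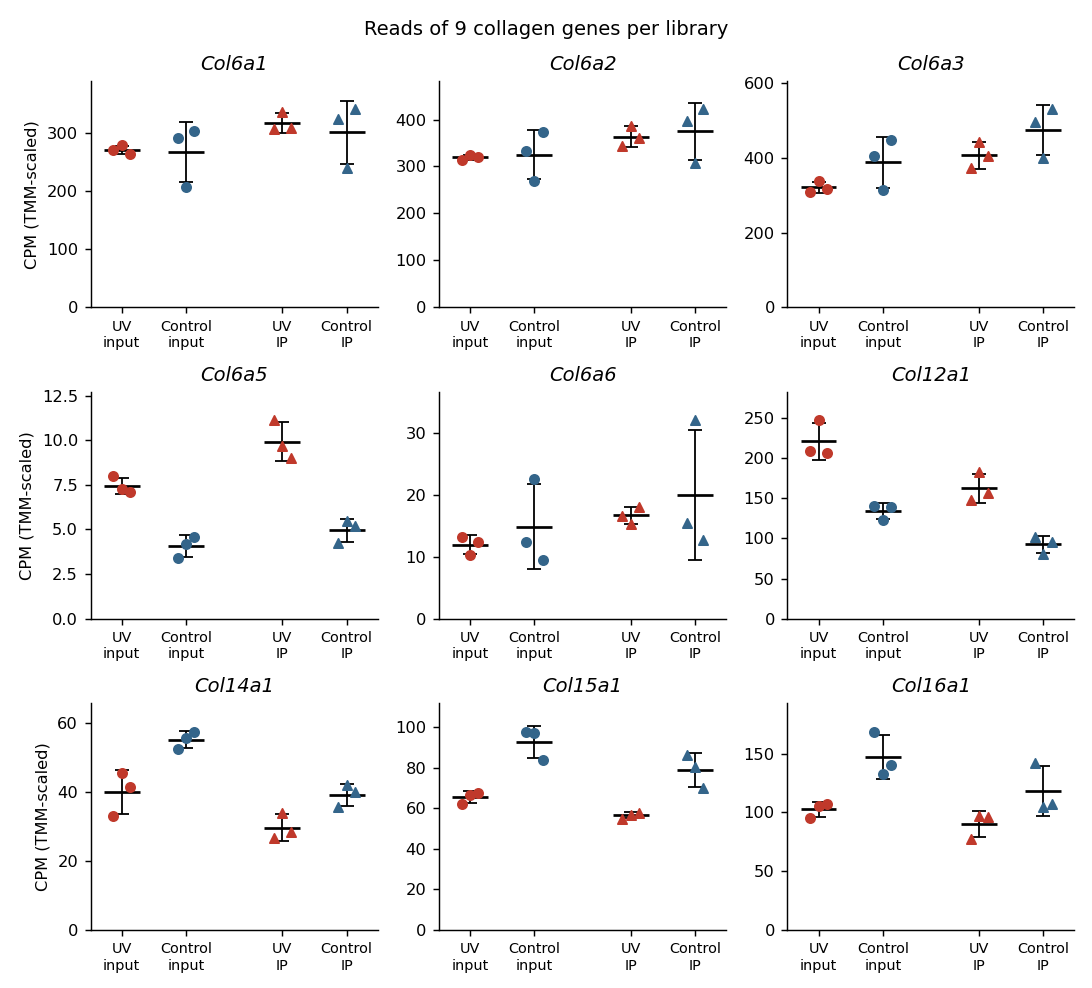
Reads of each gene per library as CPM (TMM-scaled; vertical axes start at 0 and differ between genes), with UV left of control for input (circles) and IP (triangles) libraries; bars are means ± SD, n = 3. The UV input values of Col6a5 (7.08 to 7.97) and Col12a1 (207.0 to 247) lie above every control value, those of Col14a1, Col15a1 and Col16a1 below, and those of Col6a1, Col6a2, Col6a3 and Col6a6 overlap the control values.

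The first comparison asked which of these transcripts differ between UV and control skin, in the input libraries. Of the 9 genes, 2 rose (Col12a1 and Col6a5), 2 fell (Col15a1 and Col16a1) and 5 were not called, where a call is a Benjamini-Hochberg adjusted p below 0.05 in edgeR's quasi-likelihood test over the 24099 genes tested. Of all those genes, 5.83% were called, 3.02% higher and 2.81% lower. The median log2 change was -0.28 over the 9 genes and -0.02 over all genes tested. Groups did not overlap for 5 of the 9 genes, with UV above in 2 and below in 3, against 31.2% of all genes (16.2% above, 15% below).

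The common collagen VI chains were not called. Col6a1 had 271, 279 and 265 CPM in UV, against 293, 208 and 303 CPM in control. Its log2 change was 0.01 (95% interval -0.30 to 0.33, adjusted p = 0.966, edgeR), and the UV values lay inside the range of the control values. Col6a2, the partner chain encoded next to Col6a1 on chromosome 10, had 314, 325 and 320 CPM in UV and 333, 269 and 374 CPM in control. With a log2 change of -0.03 (95% interval -0.31 to 0.24, adjusted p = 0.888) it too lay within the control range. Col6a3, which encodes the long chain, had 309, 337 and 316 CPM in UV and 405, 314 and 447 CPM in control. Its change of -0.28 (95% interval -0.58 to 0.01, adjusted p = 0.214) was not called, and control sample 2 was the only control value below the highest UV value. Without control sample 2 Col6a3 was called lower (-0.42, adjusted p = 0.0374). In Col6a1, Col6a2 and Col6a3 alike, control sample 2 was the lowest of the 3 control samples, while the 3 UV samples lay close together.

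Of the minor chains Col6a5 rose and Col6a6 was not called. Col6a5 had 7.97, 7.26 and 7.08 CPM in UV, against 3.41, 4.20 and 4.58 CPM in control. All 3 UV values exceeded all 3 control values. The gene rose by 0.86 on the log2 scale (SE 0.14, 1.82-fold, adjusted p = 0.0154), on 299 to 474 reads in UV and 118 to 285 in control. Leaving out any 1 of the UV samples took the adjusted p of Col6a5 to as much as 0.0745, with log2 changes of 0.75 to 0.97 over all 6 omissions. Col6a6, its neighbour on the same strand of chromosome 9, had 13.2, 10.3 and 12.5 CPM in UV and 12.4, 22.7 and 9.53 CPM in control. Control sample 2 held the highest value and the groups overlapped. The log2 change of -0.31 (95% interval -0.95 to 0.34, adjusted p = 0.540) turned to 0.12 without control sample 2. That sample also had the highest summed level of 8 skeletal muscle markers, 10478 CPM, against 4524 and 5736 CPM in the other control samples and 1682 to 4403 CPM in the UV samples. Its input library also had the lowest keratinocyte marker sum (23805 CPM) and the highest hair follicle marker sum (67348 CPM) of the 6 input libraries. It held the fewest reads in genes as well (24126662). Whether any of these bears on Col6a6 was not tested.

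Among the fibril-associated collagens the direction was split. Col12a1 had 209, 247 and 207 CPM in UV, against 141, 123 and 140 CPM in control, with no overlap. It rose by 0.71 on the log2 scale (SE 0.10, 1.63-fold, adjusted p = 0.00966) and kept its call in all 11 alternative settings, with an adjusted p of at most 0.0420. Col14a1, its closest relative in the family, had 33.0, 45.4 and 41.6 CPM in UV and 52.6, 55.7 and 57.6 CPM in control. Every UV value was below every control value, yet at -0.47 (SE 0.12, adjusted p = 0.0569) the gene missed the threshold. The same gene was called lower with library size only, with DESeq2 or without a low-count filter (adjusted p from 0.0142, over a range up to 0.155). Col16a1, a minor collagen found near fibrils and microfibrils, had 95.4, 105 and 107 CPM in UV, against 169, 133 and 141 CPM in control. It fell by 0.53 on the log2 scale (SE 0.10, 0.692-fold, adjusted p = 0.0271). Col15a1 had 62.3, 66.7 and 67.5 CPM in UV and 97.8, 97.1 and 83.7 CPM in control. It fell by 0.51 (SE 0.09, 0.701-fold, adjusted p = 0.0177). For both genes the highest UV value stood below the lowest control value. The calls of Col15a1 and Col16a1 ended without UV 1, UV 2, UV 3 or control 1, with adjusted p up to 0.0974 for Col15a1 and 0.126 for Col16a1.

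**Figure D2:**
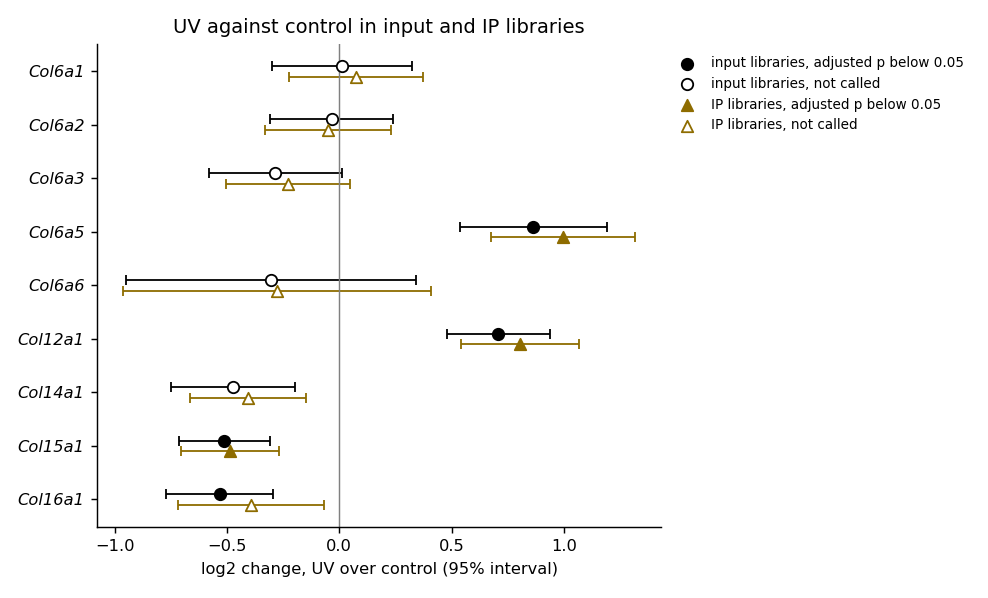
Log2 change of UV over control (horizontal axis) of each gene in the input libraries (black circles) and the IP libraries (brown triangles), with 95% intervals; filled symbols have an adjusted p below 0.05. Col6a5 and Col12a1 lie right of 0 in both kinds of library and Col15a1 left of 0 in both, while the intervals of Col6a1, Col6a2, Col6a3 and Col6a6 cross 0.

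Promoter sequences are shown for genes whose transcripts rose (Col6a5), fell by similar amounts (Col15a1 and Col16a1) or stayed within the control range (Col6a1), so that the changes can be set beside the letters at their start sites. They come from RefSeq (GRCm38.p6), in which 7 of the 9 genes matched, and each runs from 250 bases before to 50 bases after an annotated start site, 5′ to 3′ on the strand of the gene. No promoter was available for Col12a1, which also rose, or for Col14a1. Capitals mark matches on either strand to the TATA box with letters TATAAA, to CCAAT, to the GC box with letters GGGCGG, to the site of AP-1 (a factor known to respond to UV) with letters TGANTCA, or to the E-box with letters CACGTG. Of 27025 promoters of the same length, 14.2% held the TATA box, 37.9% the CCAAT box, 35.9% the GC box, 7.93% the AP-1 site and 7.24% the E-box.
Col6a5, chr9:105960594-105960893, minus strand: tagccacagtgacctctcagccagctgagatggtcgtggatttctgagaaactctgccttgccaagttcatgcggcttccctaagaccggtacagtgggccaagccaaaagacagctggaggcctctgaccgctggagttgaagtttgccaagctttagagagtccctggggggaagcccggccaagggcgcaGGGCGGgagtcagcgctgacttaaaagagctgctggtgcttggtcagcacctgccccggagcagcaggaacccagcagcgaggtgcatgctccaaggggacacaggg
Col15a1, chr4:47207762-47208061, plus strand: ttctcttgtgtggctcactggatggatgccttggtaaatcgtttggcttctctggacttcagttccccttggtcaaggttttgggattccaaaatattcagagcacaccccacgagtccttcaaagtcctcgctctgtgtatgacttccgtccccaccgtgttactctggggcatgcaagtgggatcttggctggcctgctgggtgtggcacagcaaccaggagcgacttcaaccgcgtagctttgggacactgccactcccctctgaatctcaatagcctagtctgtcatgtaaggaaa
Col16a1, chr4:130047590-130047889, plus strand: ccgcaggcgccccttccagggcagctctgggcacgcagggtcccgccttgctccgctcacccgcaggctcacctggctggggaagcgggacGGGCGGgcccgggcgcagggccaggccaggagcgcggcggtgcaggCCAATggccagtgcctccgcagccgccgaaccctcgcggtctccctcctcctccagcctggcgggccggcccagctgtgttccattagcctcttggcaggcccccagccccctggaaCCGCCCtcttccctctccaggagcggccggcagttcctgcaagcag
Col6a1, chr10:76725995-76726294, minus strand: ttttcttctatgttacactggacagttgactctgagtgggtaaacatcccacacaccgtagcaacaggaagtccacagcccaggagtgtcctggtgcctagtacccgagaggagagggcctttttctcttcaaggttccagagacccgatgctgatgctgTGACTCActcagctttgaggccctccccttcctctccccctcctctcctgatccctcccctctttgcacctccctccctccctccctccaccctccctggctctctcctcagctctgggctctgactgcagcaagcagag
The Col6a5 window held 1 GC box, at position -57 from the start site. Among genes not called, the windows of Col6a2 held 3 and 1 GC boxes and that of Col6a6 held 2. Those of Col6a1 and Col6a3 held no GC box. Of the 2 genes that fell, the Col15a1 window held none of the 5 motifs and was 52.3% G and C, whereas that of Col16a1 was 74.3% G and C and held 1 CCAAT and 2 GC boxes. The Col15a1 window ends at 47208061, upstream of the first exon of the deposited annotation, which starts at 47208161. The Col6a1 window held the 1 AP-1 match found in the 8 windows of the 7 genes, at position -90 from the RefSeq start site. In the deposited annotation Col6a1 starts further upstream, at 76726168, so by that annotation the match lies inside the gene. A match is a description of the letters, and the median G and C content of all promoters was 52.7%.

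Ratios of pairs of genes within a sample described the make-up of the set in each condition. These are log2 ratios of CPM per kilobase in the input libraries, and with 3 samples against 3 the exact two-sided permutation test cannot give a p below 0.1, so none of the 7 ratios could pass the threshold. Col12a1 over Col14a1 was 1.54, 1.33 and 1.20 in UV, against 0.30, 0.03 and 0.16 in control. The difference of 1.19 (exact permutation p = 0.1, adjusted over the 7 ratios p = 0.175) left every UV ratio above every control ratio. This separation follows from the levels given above, where Col12a1 lay higher and Col14a1 lower in every UV sample, and is no further result. Col12a1 over Col1a1, the main fibril chain on which types XII and XIV lie, was -4.61, -4.61 and -4.86 in UV, against -5.95, -6.13 and -5.69 in control, a difference of 1.23 (exact permutation p = 0.1). Every UV ratio was above every control ratio, and this ratio uses the same Col12a1 values.

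Within collagen VI the ratio of Col6a2 to Col6a1 overlapped between groups. It was -0.71, -0.71 and -0.65 in UV and -0.74, -0.55 and -0.62 in control, a difference of -0.05 (exact permutation p = 0.4). Col6a3 over Col6a1 was -1.26, -1.18 and -1.19 in UV, against -0.98, -0.85 and -0.89 in control. All 3 UV ratios lay below all 3 control ratios, by 0.30 on average (difference -0.30, exact permutation p = 0.1, adjusted p = 0.175), although neither gene was called by itself. The same ratio in the IP libraries differed by -0.31. Col6a5 over Col6a1 was -6.19, -6.37 and -6.33 in UV and -7.53, -6.73 and -7.15 in control, a difference of 0.84 (exact permutation p = 0.1) without overlap. For Col6a6 over Col6a1 the groups overlapped (difference -0.26, exact permutation p = 0.9), as they did for Col15a1 over Col16a1 (difference 0.02, exact permutation p = 1), the pair called lower in UV. Leaving out control sample 2 turned the Col6a6 difference to 0.27.

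**Figure D3:**
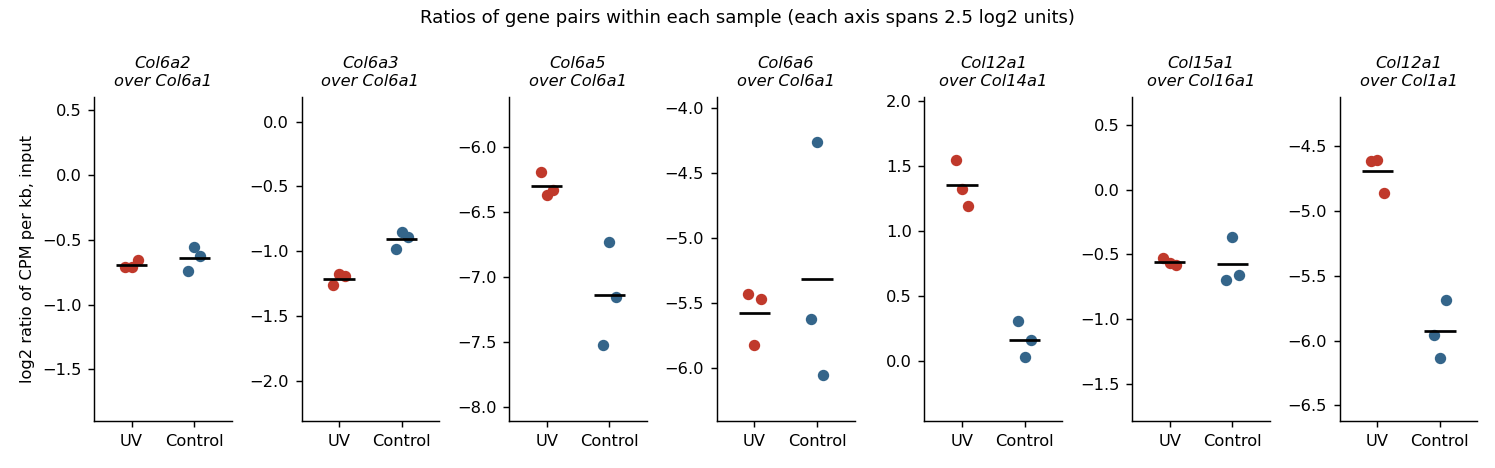
Log2 ratio of CPM per kilobase of gene pairs in each input library, UV left of control, with a bar at each mean; every vertical axis spans the same number of log2 units at a different height. The UV points lie above the control points for Col6a5 over Col6a1, Col12a1 over Col14a1 and Col12a1 over Col1a1, below them for Col6a3 over Col6a1, and among them for the other 3 ratios.

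Among the collagens on which these proteins sit and the proteins they bind, most genes were not called. Of 7 fibrillar collagen genes (Col1a1, Col1a2, Col2a1, Col3a1, Col5a1, Col5a2 and Col5a3), 1 rose and 2 fell, with a median log2 change of -0.35, and DESeq2 called 1 higher and 5 lower. Col1a2, a chain of type I collagen, averaged 1406 ± 144 CPM in UV and 1981 ± 173 CPM in control (log2 change -0.50, SE 0.12, adjusted p = 0.0487). Col5a3, a chain of type V collagen, averaged 50.4 ± 1.93 CPM in UV and 72.4 ± 9.96 CPM in control (-0.53, adjusted p = 0.0273). Col2a1, best known from cartilage, averaged 2.57 ± 0.55 CPM in UV and 0.61 ± 0.09 CPM in control (2.05, adjusted p = 0.00478). Col1a1 was just short of the threshold (-0.53, adjusted p = 0.0508). The call of Col1a2 ended in 6 of 11 alternatives (adjusted p up to 0.194) and that of Col5a3 in 5 (up to 0.117), with every single UV sample and control 1 among the omissions that ended either. Of a list of 22 further collagen genes, which also holds the fibrillar Col11a1, Col11a2, Col24a1 and Col27a1, 21 were tested. Col8a1, a network-forming collagen of vessels, rose (0.91, adjusted p = 0.0155). Col25a1, a transmembrane collagen, fell (-1.14, adjusted p = 0.0392), and the median of the list was 0.01. The call of Col8a1 ended without any UV sample or control 1 (adjusted p up to 0.0728), and that of Col25a1 without any 1 of the 6 samples (up to 0.139).

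Of 25 matrix partners 23 were tested, 1 rose and 5 fell, with a median of -0.11. The decorin gene Dcn, whose product binds type VI and type XIV collagen, averaged 60.3 ± 5.09 CPM in UV and 102.2 ± 14.8 CPM in control (log2 change -0.77, SE 0.12, adjusted p = 0.0133). Tnxb, which encodes the fibril-binding tenascin X, averaged 134 ± 22.3 CPM in UV and 242 ± 21.9 CPM in control (-0.86, adjusted p = 0.0124). Lum, Hspg2 and Fn1, for lumican, perlecan and fibronectin, fell by 0.62, 0.43 and 0.36 (adjusted p = 0.0279, 0.0261 and 0.0319). Tnn, for tenascin N, rose by 1.11 (adjusted p = 0.0393). Omitting single samples ended all 6 of these calls, that of Tnxb only without UV 1 (adjusted p = 0.0531), that of Dcn without UV 1 or UV 3 (up to 0.0710), and the others without any UV sample or control 1 (up to 0.158 for Fn1), that of Tnn also without control 2. Of 15 receptor genes for these collagens, among them the collagen-binding integrins, the discoidin domain receptors and the collagen VI receptor Antxr1, 14 were tested and 0 were called in edgeR, with a median of -0.08. At an unadjusted p below 0.05 there was 1 higher and 1 lower, and DESeq2 called 0.

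Markers of the cells that could carry these transcripts are given beside the changes, and their part in them was not tested. Of the 10 fibroblast markers 1 rose, Crabp1 (1.24, adjusted p = 0.00441), 0 fell and the median was -0.09. At an unadjusted p below 0.05, 1 fibroblast marker was higher and 1 lower, and DESeq2 also called 1 higher and 1 lower. The lower one at the unadjusted threshold was Twist2, named after its values were seen, with 2.32 ± 0.33 CPM in UV and 3.68 ± 0.74 CPM in control (-0.68, SE 0.19, adjusted p = 0.0758). Adipocyte markers rose in 3 of 8 (Cidec, Cfd and Pparg) and summed to 407 to 489 CPM in UV and 312 to 355 CPM in control. Skeletal muscle markers fell in 2 of 8 (Pvalb and Actn3, median -1.42). Keratinocyte, endothelial, Schwann cell and hair follicle markers had 0 calls in edgeR, with medians of 0.51, 0.34, 0.01 and -0.52. At an unadjusted p below 0.05, 5 keratinocyte, 4 endothelial and 1 Schwann cell markers were higher and 2 hair follicle markers lower, and DESeq2 called 3 keratinocyte and 1 endothelial markers higher and 1 hair follicle marker lower. Smooth muscle and pericyte markers had 1 rise of 7 (Rgs5) and macrophage markers 1 fall of 6 (Csf1r).

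Genes whose pattern over the 6 input libraries was most like that of the set are a description over few libraries of differing depth. Among 10441 genes with a mean of at least 5 CPM, Ppp1ca, Litaf, Pttg1ip and Il10rb followed the mean of Col6a1, Col6a2 and Col6a3 most closely, with Pearson r of 0.982, 0.981, 0.980 and 0.980. Polr3b, Gipc2, Zc3h18 and Zbtb8os followed Col12a1, with r of 0.999, 0.995, 0.994 and 0.993. A correlation above 0.9 was reached by 120 genes for the first pattern and by 689 for the second. Of these 8 genes Gipc2 (log2 change 0.74) and Zbtb8os (0.47) were called higher in UV.

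In the IP libraries Col6a5 and Col12a1 rose and Col15a1 fell. Col6a5 had 11.1, 9.66 and 9.01 CPM in the UV IP libraries, against 4.22, 5.46 and 5.19 CPM in the control ones, and rose by 1.00 on the log2 scale (SE 0.14, adjusted p = 0.0129). Col12a1 had 148, 183 and 156 CPM in UV, against 101, 81.1 and 95.6 CPM in control, and rose by 0.80 (SE 0.11, adjusted p = 0.0134). Col15a1 had 54.9, 56.6 and 57.8 CPM in UV, against 86.2, 80.4 and 69.7 CPM in control, and fell by 0.49 (SE 0.10, adjusted p = 0.0385). None of these 3 genes had overlapping groups. These 2 rises and 1 fall compare with 2.5% of the 22789 genes tested called, 1.45% higher and 1.05% lower, and 24.7% without overlap. Col16a1 (-0.39, adjusted p = 0.181) and Col14a1 (-0.41, adjusted p = 0.103) were not called, although their groups did not overlap either. Single omissions ended the calls, for Col6a5 without UV 1, UV 2 or control 1 (adjusted p up to 0.0633), for Col12a1 without UV 2 or control 1 (up to 0.0625) and for Col15a1 without any UV sample, control 1 or control 2 (up to 0.168).

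The ratio of IP to input reads asked how strongly each transcript as a whole was recovered by the m6A antibody, relative to the average gene. Each of the 5 collagen VI genes of the set was above 0 in all 6 samples, and each of its other 4 genes below 0 in all 6. The share of all genes that keep their sign in all 6 samples was not counted. This division describes the 9 genes only, as further collagen genes lay on either side of 0. Their fitted log2 ratios in UV and control were 0.27 and 0.26 for Col7a1 and 0.52 and 0.50 for Col9a3. They were -0.30 and -0.25 for Col18a1 and -0.94 and -1.02 for Col1a1. Col6a3 had log2 IP over input values of 0.26, 0.39 and 0.36 in the UV samples and 0.29, 0.35 and 0.24 in the control samples, so the conditions overlapped. Of the 9 genes Col6a6 had the highest of these values, 0.33, 0.56 and 0.52 in UV and 0.30, 0.49 and 0.40 in control. Col12a1 was at the other end, with -0.50, -0.43 and -0.40 in UV and -0.47, -0.60 and -0.54 in control. Col14a1 stood close to it, at -0.31, -0.41 and -0.55 in UV and -0.55, -0.40 and -0.52 in control.

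In the fit over all 12 libraries, Col6a3 (log2 IP over input 0.34, SE 0.13, adjusted p = 0.0471) and Col6a5 (0.42, SE 0.14, adjusted p = 0.0242) were called enriched in UV, and Col12a1 (-0.44, SE 0.11, adjusted p = 0.00483) and Col14a1 (-0.43, SE 0.12, adjusted p = 0.0106) depleted. Of the 25022 genes tested, 49% were called in UV, 24.7% enriched and 24.4% depleted. In control, Col12a1 (-0.54, SE 0.11, adjusted p = 0.00131), Col14a1 (-0.49, SE 0.12, adjusted p = 0.00449) and Col15a1 (-0.24, SE 0.09, adjusted p = 0.0408) were depleted and 0 of the 9 enriched, against 50.3% of all genes called, 24.6% enriched and 25.8% depleted. At an unadjusted p below 0.05 in control 1 was enriched and 4 depleted, and DESeq2 called 0 enriched and 3 depleted. Col6a1, Col6a2 and Col6a6 had 0.23, 0.19 and 0.48 in UV and 0.17, 0.20 and 0.46 in control, none called.

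IP and input libraries with the same sample number come from the same sample, and with the sample as a replicate block shared by both, all 9 genes were called in both conditions, against 60.5% of all genes in UV and 61.1% in control with the same block. Higher in IP were 30.4% of all genes in UV and 30.0% in control, and lower 30.1% in UV and 31.1% in control. The 5 collagen VI genes were then enriched and the other 4 depleted, in UV (adjusted p from 1.15e-08 for Col12a1 to 0.00162 for Col16a1) and in control (from 8.10e-10 for Col12a1 to 0.0267 for Col6a5), with log2 values close to those without the block, such as 0.49 for Col6a6 in UV and 0.41 in control. These directions are relative to the average gene. With library size only the median of all genes moved by -0.16 in UV and -0.25 in control, and Col6a1 and Col6a2 then lay below 0 in control (-0.08 and -0.04), while the depletion of Col12a1 and Col14a1 kept its call. Without the block, single omissions ended the UV calls of Col6a3 (any UV sample or control 1, adjusted p up to 0.186), Col6a5 (any UV sample, up to 0.110) and Col14a1 (UV 3, 0.0977) and the control call of Col15a1 (up to 0.129), and omitting control 2 brought all 5 collagen VI genes past the threshold in UV.

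**Figure D4:**
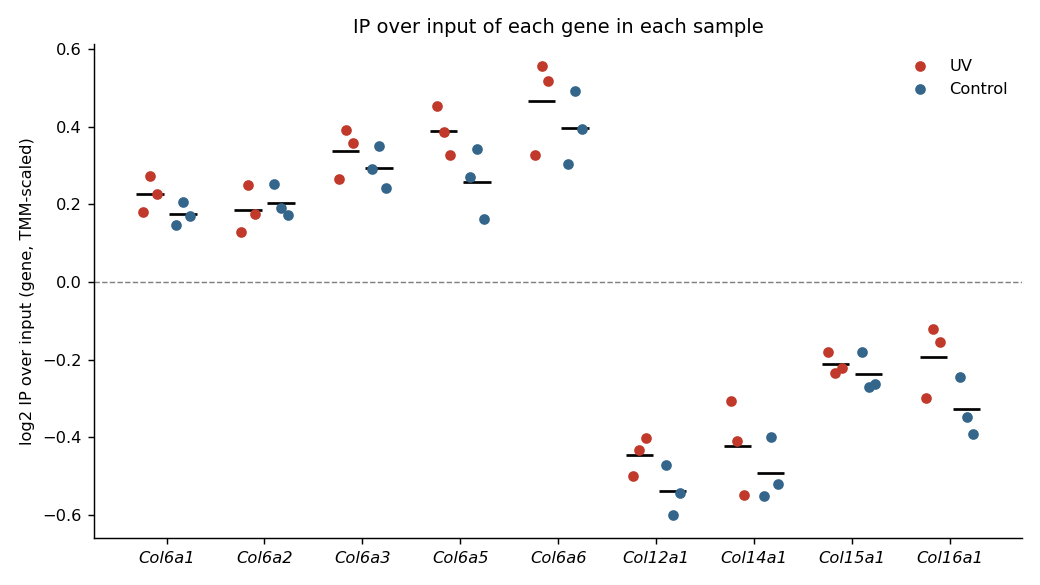
Log2 IP over input of each gene in each sample, relative to the average gene (dashed line at 0), UV left of control, with a bar at each mean. All points of the 5 collagen VI genes lie above 0 and all points of Col12a1, Col14a1, Col15a1 and Col16a1 below it, and in every gene the UV points overlap the control points.

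When UV was set against control, the log2 IP over input of the 9 genes differed by -0.02 to 0.14, and no difference passed the test. It was largest in Col16a1 (0.14, 95% interval -0.27 to 0.54) and Col6a5 (0.13, -0.30 to 0.56), and Col12a1, whose transcript rose, had 0.09 (-0.24 to 0.43). The narrowest interval was that of Col15a1 (0.02, -0.25 to 0.29) and the widest that of Col6a6 (0.02, -0.99 to 1.03). These intervals are from the fit without the block, which leaves out the pairing of IP and input and is wider for it. With the sample as a block the change was 0.08 (SE 0.10) for Col6a6 and 0.02 (SE 0.06) for Col15a1. In edgeR 0 of the 9 genes were called, 0 had an unadjusted p below 0.05 and 0 were called by DESeq2. Of all 25022 genes 0.012% were called and 1109 had an unadjusted p below 0.05. With the sample as a replicate block the lowest p of the set was that of Col16a1 (change 0.14, unadjusted p = 0.0533, adjusted p = 0.449). The conditions overlapped in all 9 genes, whereas 17.6% of all genes had no overlap (8.35% with UV above).

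Peaks placed the m6A signal within the transcripts. The peak table listed 12 peaks under Col6a3, 7 under Col6a2, 6 under Col6a6, 5 under Col6a5, 4 under Col6a1, 3 under Col12a1, 2 under Col14a1, 2 under Col15a1 and none under Col16a1. Of the 41 peaks, 30 were called by the authors in the UV arm and 11 in the control arm, a UV share of 73.2% against 58.1% of all peaks. They fell into 30 separate regions, 9 listed in both arms, 20 in UV only and 1, in Col6a5, in control only. A peak listed in 1 arm only says that the authors' caller listed it there, and reads were counted for every peak in all 12 libraries. Peaks of both arms over the same region share reads. Peaks were listed from the same IP and input libraries, so testing IP over input at a peak reuses the reads that chose it.

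The exons that hold these peaks were long. Of the 41 peaks, 32 lay within 1 merged exon of their gene, and these shared 19 exons with a median length of 621 bases, against 89.5 bases for all 422 merged exons of the 9 genes. Exons over 400 bases, a length chosen after the values were seen, made up 18 of the 19 exons with such a peak and 52 of all 422. The exception was exon 1 of Col14a1, with 235 bases. A peak fits more readily within a long exon, so the length of the exon and the count of peaks within it are not independent. Col16a1, the gene without a listed peak, had 72 merged exons with a median of 54 bases, and its longest had 484.

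In the fibril-associated genes the peaks stood against a low whole-gene ratio. The main Col12a1 region, in exon 10 of 66 (chr9:79699470-79699740, GRCm38, minus strand, bases 4678 to 4948 of 15228), had log2 IP over input values of 1.35, 1.26 and 1.14 in UV and 1.25, 0.55 and 1.44 in control. Control sample 2 was low and the groups overlapped. The fitted ratio was 1.28 (SE 0.17, adjusted p = 5.58e-06) in UV and 1.12 (SE 0.18, adjusted p = 3.80e-05) in control, where the whole gene had -0.44 and -0.54. A weaker UV peak over exons 12 and 13 had 0.52 in UV and 0.55 in control. In Col14a1 the signal lay at the 5′ end, in the first 151 bases of exon 1 (chr15:55307750-55307900, plus strand), with 0.72, 1.01 and 0.72 in UV and 0.58, 0.76 and 0.66 in control. It was called enriched in both groups (0.83, adjusted p = 9.67e-06 in UV; 0.68, adjusted p = 6.72e-05 in control). A second Col14a1 peak, in exon 48 of 49, had 2 to 25 IP reads a library and was not enriched (-0.01 in UV, -0.88 in control).

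Col15a1 had 1 region, in its last exon (chr4:47312360-47312569, plus strand, exon 46 of 46, 1091 bases long). Its values were 1.03, 1.06 and 1.02 in UV and 1.05, 0.91 and 0.96 in control, with overlap and a fitted change of 0.06 (SE 0.17, adjusted p = 0.961). The reads behind these ratios were 171, 477 and 218 reads in UV IP libraries over 97, 141 and 178 in input, against 469, 433 and 182 over 265, 118 and 231 in control.

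Col6a1 had 3 regions, in its last exon and over exons 9 to 19, and Col6a2 had regions between exon 3 and exon 29. The Col6a1 region listed in both arms (chr10:76709390-76709869, minus strand, exon 34 of 34) had 1.31, 1.05 and 1.22 in UV and 0.96, 0.91 and 1.12 in control, with overlap. Its fitted change was 0.19 (SE 0.22, adjusted p = 0.865). A UV-arm peak at the end of the same exon (chr10:76708792-76708972) had fitted ratios of 1.72 (SE 0.37) in UV and 1.33 (SE 0.36) in control. The UV-arm peak over exons 9 to 19, with far more reads, had 0.72 (SE 0.14) in UV and 0.62 (SE 0.14) in control. Both peaks were called enriched in both groups, and neither change was called (0.39 and 0.10). In Col6a2, a control-arm peak of 181 bases in exon 29 of 29 (chr10:76595911-76596091, minus strand) had 2.33, 1.98 and 2.24 in UV and 1.04, 2.31 and 1.11 in control. Control sample 2 again stood apart, here with the UV samples, so the groups overlapped. The change of 0.94 (SE 0.36) had an unadjusted p of 0.0202 and an adjusted p of 0.567, on 105, 305 and 129 IP reads over 23, 46 and 43 input reads in UV and 149, 126 and 63 over 84, 12 and 71 in control. Without control sample 2 it was 1.14 (adjusted p = 0.274). With the sample as a replicate block it was 0.86 (adjusted p = 0.208). The longer UV-arm peak that covers it (688 bases) had a change of 0.31 (adjusted p = 0.796). A control-arm peak in exon 3 of 29 of Col6a2 (chr10:76614502-76614801) had 1.44, 1.34 and 1.33 in UV and 0.96, 1.67 and 1.28 in control, with overlap. Its fitted log2 ratio was 1.37 (SE 0.17) in UV and 1.25 (SE 0.17) in control, a change of 0.12 (SE 0.24, adjusted p = 0.936).

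Col6a3 had peaks spread along 9 regions, from exon 5 to exon 40 of 45. The pair of overlapping peaks with the most reads was in exon 10 (chr1:90803717-90804017, minus strand), with 1.15, 1.22 and 1.41 in UV and 1.11, 1.41 and 1.27 in control. The fitted ratios were 1.26 in UV and 1.25 in control, a change of 0.01 (SE 0.20, adjusted p = 0.996). Exon 40 (chr1:90775985-90776254) had 1.65, 1.55 and 1.26 in UV and 0.89, 2.07 and 1.40 in control, and exon 38 (chr1:90778951-90779251) 0.75, 1.30 and 1.37 in UV and 0.94, 1.48 and 1.06 in control. In both exons the groups overlapped. Over the 12 Col6a3 peaks the changes ran from -0.04 to 0.34.

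The peaks of the scarce chains rested on few reads. The Col6a5 peak in exon 7 of 42 (chr9:105930827-105931067, minus strand) had 38, 73 and 24 IP reads over 8, 12 and 14 input reads in UV, and 18, 30 and 18 over 6, 1 and 14 in control. Its fitted log2 ratio was 2.00 (SE 0.43) in UV and 1.94 (SE 0.49) in control, both called. The region listed in control only, in the last exon of Col6a5 (chr9:105856288-105856378), had a ratio of 1.05 (SE 0.58) in UV and 2.48 (SE 0.75) in control, a change of -1.43 that was not called (adjusted p = 0.731). In exon 5 of Col6a6 a 61-base UV-arm peak (chr9:105783684-105783744) had the highest change of the 39 tested peaks, 2.79 (SE 1.10, unadjusted p = 0.0224, adjusted p = 0.573). It rested on 6, 12 and 9 IP reads over 0, 2 and 0 input reads in UV, and 7, 14 and 2 over 5, 2 and 8 in control, and omitting single samples moved the change between 1.94 and 5.52. Another region of the same exon (chr9:105783923-105784103) had a change of -0.89 (adjusted p = 0.764), so neighbouring stretches of the exon differed in sign. The 2 peaks too low to test were a Col6a5 peak in exon 3 and a Col6a6 peak in exon 37.

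Over the 39 peaks tested, 34 were called enriched in UV and 32 in control, against 93.3% and 87.6% of the 41496 peaks tested. With the sample as a replicate block shared by IP and input, 36 were called in UV and 33 in control, against 94.1% and 88.0% of all peaks. The calls gained in UV were 2 overlapping peaks in exon 5 of Col6a6 (adjusted p = 0.00541 and 0.0157), and the one gained in control was the Col6a6 peak over exons 13 to 20 (0.43, adjusted p = 0.00262, against 0.165 without the block). The median log2 IP over input was 1.13 in UV and 1.00 in control, against 1.34 in UV and 1.24 in control for all peaks. These enrichment calls and ratios reuse the reads from which the peaks were chosen. They describe the listed peaks and are no separate evidence of enrichment. For the change between UV and control, edgeR called 0 of the 39 and 0 of all peaks, and DESeq2 called 0 of the 39. An unadjusted p below 0.05 was found for 2 of the 39, the Col6a2 and Col6a6 peaks above, and for 8.14% of all peaks. With the block it was found for 3 of the 39 and 14.2% of all peaks, and 0 of the 39 were called. The 3 were the same 2 and the Col6a6 peak over exons 13 to 20, whose change was 0.58 (unadjusted p = 0.00330, adjusted p = 0.119) against an unadjusted p of 0.306 without the block. The change was above 0 in 33 of the 39, with a median of 0.12 against 0.04 for all peaks, and overlapping peaks share reads. Of the 41 member peaks 73.2% were called in the UV arm, against 58.1% of all peaks. A peak called on UV reads leans towards a change above 0, so the count and the medians are not free of that selection. Groups did not overlap for 3 of the 39, all with UV above, against 19.4% of all peaks tested (9.98% with UV above, 9.4% with UV below). All 3 were peaks called in the UV arm. The first of the 3 covers exons 3 to 5 of Col6a2, with 0.91, 0.92 and 0.94 in UV and 0.91, 0.79 and 0.86 in control. The other 2 are in Col6a6, in exon 9 (1.93, 1.07 and 0.97 in UV, 0.08, 0.55 and 0.84 in control) and over exons 13 to 20 (0.82, 1.00 and 1.16 in UV, 0.58, 0.42 and 0.24 in control). The authors' deposited table gave a p below 0.05 to 4 of the 41 peaks, against 2367 of all 42989 (5.51%), and an FDR below 0.05 to 0, with a lowest FDR of 0.580, and an FDR below 0.05 to 45 of all peaks. Of the 4, the Col6a2 and Col6a6 peaks with an unadjusted p below 0.05 without the block had the authors' log2 changes of 0.89 and 3.08. The others, overlapping peaks in exon 5 of Col6a6 that share reads, had -1.38 and -0.75.

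**Figure D5:**
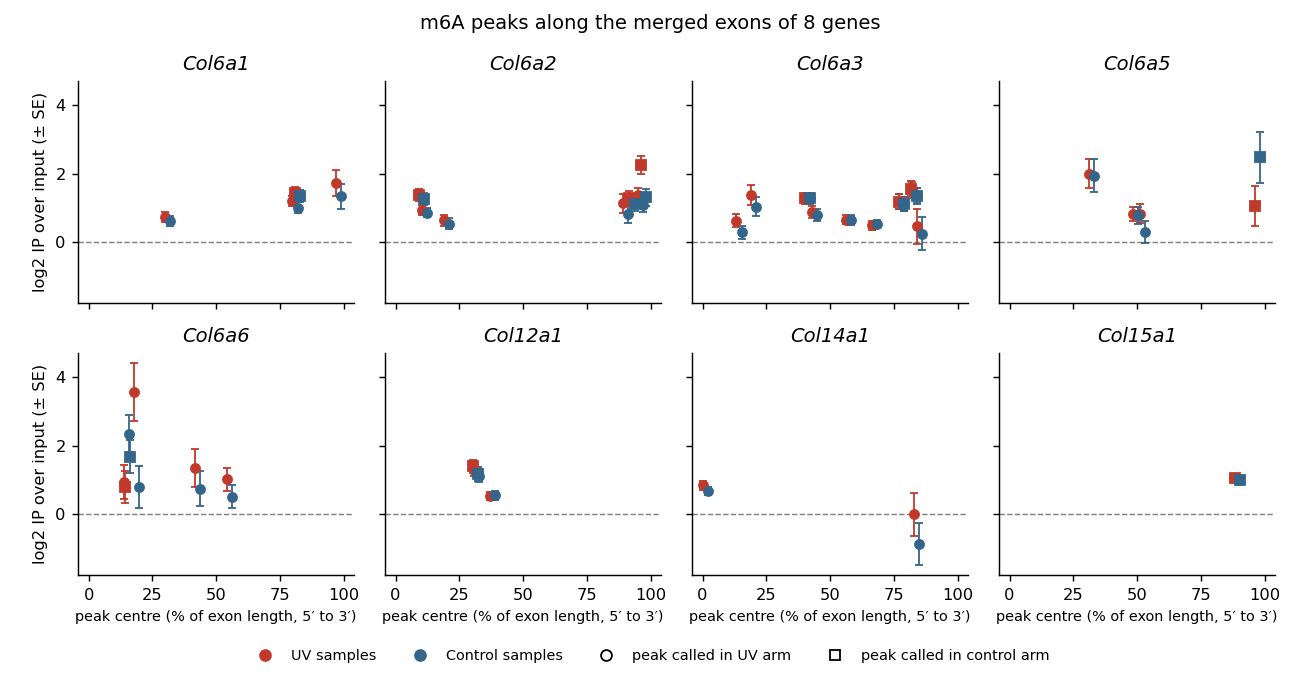
Fitted log2 IP over input (± SE) of the 39 tested peaks of 8 genes against the position of the peak's centre along the merged exons (% of length, 5′ to 3′), UV (red) drawn just left of control (blue); circles are peaks called in the UV arm and squares those called in the control arm. Most points lie above 0 (dashed), the Col15a1 region and the last-exon Col6a1 and Col6a2 peaks sit near the 3′ end, and the Col12a1 peaks lie 31.4% to 38.0% along the transcript.

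Other genes share little with these exons: 63 bases of Col6a6 exons are covered by Gm38314 and 14 bases of Col15a1 exons by Gm12426, both on the opposite strand, with 496 and 183 reads in all libraries against 9492 and 44947 for the collagen genes.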

How the data were processed

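RNA of 6 mouse skin samples was profiled as IP and input libraries with a stranded mRNA kit, per the labels. The authors deposited a gene table of raw counts over 12 libraries, and a peak table with raw counts per peak and, per the file headers, a log2 fold change, a p-value and an FDR per peak. STAR 2.5.3a and GRCm38 are named in the submitters' processing notes. Neither the counter, its use of strand nor the peak caller is named in them. Even numbers made up 79.5% to 83.6% of counts from 1 to 20, so 1 fragment may stand for a pair of reads.

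The members and gene lists were chosen with earlier results of these data known. All members and up to 6 called genes per list were named. All peaks of the members were counted, and only a part of them is described singly. edgeR 4.0.16 (R 4.3.3) with TMM and filterByExpr was fitted on whole tables: UV against control in 6 input or 6 IP libraries, and 4 group means over 12 libraries for IP over input and its change. Peaks used library sizes and TMM factors of the gene table. Peak starts counted from 0 in the file (1966 met an exon start after adding 1, against at most 119 at other offsets), and 1 was added. Ratios per sample used a pseudocount of 0.5 CPM for genes and 0.05 CPM for peaks. The tests were also run on simulated counts, drawn independently for each library with the same spread for every feature and low counts left out. That check does not cover the pairing of IP and input or peaks with few reads. IP and input of the same sample deviated together (r from 0.186 to 0.398 over 6 pairs, against -0.353 to -0.082 for different numbers), and the sample was used as a block; equal numbers in UV and control did not (-0.116 to 0.026 in input). Alternatives were library size only, RLE, DESeq2 1.42.0, no filter, a replicate block, TMM over peaks and leaving out each sample. No genome was used, so no peak sequence is shown.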

Additional observations from a re-analysis of the deposited data

How the results depend on the processing

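With library size only, the median of all genes moved by -0.10 in the input comparison, and the split of genes called higher and lower became 455 and 1019, against 728 and 676 with TMM. In that setting Col6a1 expression was -0.080, IP over input in control was -0.077 for Col6a1 and -0.043 for Col6a2, the change for Col6a2 was 0.072, and 0 collagen genes were called enriched in UV, against 1 with RLE factors. For IP over input, the same setting called 4574 genes higher and 7459 lower in UV and 3851 and 8824 in control, against 6179 and 6093 in UV and 6144 and 6451 in control with TMM. With the replicate number as a block, 1 of the 9 genes fell in input, 0 rose and 0 fell in IP, and for IP over input 5 were enriched in UV, 4 depleted in UV and 5 enriched in control. In UV against control that block pairs samples that share only a number. DESeq2 called 2 genes lower in IP. With TMM factors taken over the peaks themselves, which centres the peaks' own ratio near 0, 1 peak was enriched in UV and 0 in control, and the change of the Col6a3 peak over exons 16 to 22 was -0.010, and -0.0038 with the block. Over all genes, expression calls were 1343 higher and 1258 lower with DESeq2, 1104 and 1048 without a filter, and 369 and 344 with the block. IP calls were 696 and 676 with DESeq2, 730 and 696 without a filter and 146 and 101 with the block, against 330 and 240. Changes of IP over input numbered 47 and 3 with DESeq2, 22 and 0 without a filter and 211 and 188 with the block, against 3 and 0. Peak changes numbered 10 and 1 with DESeq2 and 158 and 246 with the block, against 0 and 0.

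Leaving out 1 sample at a time gave 1 to 2 collagen genes higher and 0 to 3 lower in input, 0 to 2 higher and 0 to 1 lower in IP, 0 to 5 enriched and 1 to 3 depleted in UV, and 0 to 1 enriched in control. Expression then ran from -0.14 to 0.11 for Col6a1, -0.15 to 0.080 for Col6a2 and -0.54 to 0.12 for Col6a6, and IP abundance from -0.070 to 0.17, -0.18 to 0.044 and -0.51 to 0.24 for the same genes. The change of IP over input ran from -0.053 to 0.0092 for Col6a2 and -0.028 to 0.12 for Col6a6. Peak changes ran from -0.071 to 0.050 for Col12a1 exons 12 and 13, -0.031 to 0.030 for Col6a3 exons 16 to 22 and -0.10 to 0.22 for Col6a5 exons 14 to 18. The ratio difference ran from -0.63 to 0.27 for Col6a6 over Col6a1 and from -0.045 to 0.12 for Col15a1 over Col16a1, which was -0.093 in the IP libraries. All values that changed sign were uncalled in both settings, and their cause was not tested. Over all genes these omissions gave 101 to 1237 higher and 118 to 863 lower in input. The Col6a6 peak of 61 bases with the highest change was below the filter with TMM over peaks and has no value there. At this depth 2 peaks, 1 of Col6a5 and 1 of Col6a6, had too few reads to be tested.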
